A study of Mus musculus with 6 samples.

Results

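Hepatocytes read sugar through a small set of genes. Glucose enters by the transporter GLUT2 (Slc2a2), fructose is trapped by ketohexokinase (Khk), and a regulatory protein (Gckr) restrains the phosphorylation of glucose. Sugar phosphates activate the transcription factor ChREBP (Mlxipl), which binds DNA with its partner Mlx at carbohydrate response elements and drives, among others, liver pyruvate kinase (Pklr) and Txnip, an arrestin-like protein that binds thioredoxin and lowers glucose uptake. Rgs16, which shortens signalling by Gi- and Gq-coupled receptors, is also known to follow sugar supply in liver. These 8 genes were taken by gene name from the 25718 genes of the table and were chosen by name with the earlier results of these data known, that is, with their fitted differences between genotypes in view, so their levels and differences between genotypes are given as a description, with no test.

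The libraries were made from primary hepatocytes of alcohol-fed mice, with 3 WT and 3 S100a16KO+/- libraries. Male mice aged 8 to 10 weeks received a control liquid diet for 5 days, a liquid diet with 5% ethanol by volume for 10 days and 1 gavage of ethanol at 5 g/kg, and tissues were collected 9 h later. The heterozygous deletion was made with EIIa-Cre, which is active in the early embryo, so the allele is lost in the whole animal and not in hepatocytes alone. Homozygous loss was lethal, and the labels call this genotype a knockdown. Hepatocytes were freed with collagenase and separated on Percoll. All 6 libraries come from alcohol-fed mice, so no value here bears on alcohol itself, and nothing in the labels says whether each library is 1 mouse.

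The libraries held 67658095 to 71807834 estimated counts. S100a16, the deleted gene, was measured at 14.7, 15.0 and 16.2 CPM (counts scaled to a common library size) in WT and at 6.25, 6.07 and 5.08 CPM in S100a16KO+/-, a log2 difference of -1.40 (SE 0.11). WT replicate 1 and S100a16KO+/- replicate 2 stood apart from the other 4 libraries on the second principal component, which held 12.8% of the variance. Of 15957 genes tested, 22.8% passed an adjusted p of 0.05 (edgeR quasi-likelihood test, Benjamini-Hochberg), with a median log2 difference of 0.01 over all tested genes.

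Markers of other liver cells were also read, since a hepatocyte preparation can carry them. Albumin and 7 other hepatocyte markers summed to 109220.0 to 121089 CPM in WT and 107121 to 118401 CPM in S100a16KO+/-, sums in which albumin weighs most, with 1 of 8 (Tat) higher and 2 (Ttr and Cyp3a11) lower in the test. Sinusoidal endothelial markers summed to 191 to 203 CPM in WT and 283 to 293 CPM in S100a16KO+/-, with 5 of 6 higher and 1 (Lyve1) lower in the test. Stellate cell markers summed to 35.7 to 38.6 and 63.7 to 71.1 CPM, with 3 of 6 higher. Blood cell markers summed to 138 to 172 and 16.7 to 17.8 CPM, the 2 that fell being the haemoglobin genes Hbb-bs and Hba-a1. Kupffer cell markers summed to 118 to 144 and 137 to 149 CPM, with 1 of 7 (Marco) higher. Cholangiocyte markers summed to 2.61 to 3.31 and 1.88 to 2.44 CPM, with 1 of 3 tested (Sox9) lower. Of these markers 0 were at 0 in every library. These sums add unlike genes, so they do not give the share of RNA from each cell type. Except for Kupffer cells, the ranges of the other-cell sums did not overlap between genotypes. The part of other cells in the values below was not tested. In bulk RNA, fewer cells of a type and less RNA per cell cannot be told apart.

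The DNA before the starts of these genes is shown first, because ChREBP and Mlx bind a pair of E-box-like hexamers (6-base elements) set 5 bases apart. RefSeq promoters (build GRCm38.p6) were found for 8 of 8 genes, with 10 starts in all. The 250 bases before each start were searched on both strands for the E box CACGTG, for the looser hexamer CACGNG, for a pair of such hexamers in either orientation with 5 bases between them, and for the box CCAAT. The E box is itself 1 form of the hexamer, so a promoter with an E box counts under both. A pair of hexamers was in 24 of 32851 promoters of the table, or 0.0731%, and Pklr and Txnip were among them. Their pairs are given below with 15 bases on each side, hexamers in capitals.

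Pklr, before its second (liver) start, chr3:89136438-89136484, plus strand: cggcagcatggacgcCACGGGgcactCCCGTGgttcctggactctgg

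Txnip, chr3:96557857-96557903, plus strand: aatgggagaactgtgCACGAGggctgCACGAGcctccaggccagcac

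The pair lay 170 to 154 bases before the liver start of Pklr and 85 to 69 bases before the start of Txnip. In Pklr the hexamers face each other, whereas in Txnip the same 6 letters are repeated in 1 direction. Of the 13 other tested genes with such a pair, 2 rose (Nfkb2 and Rbbp4) and 0 fell in S100a16KO+/- (edgeR). Over all tested genes 11.6% rose and 11.2% fell. The median log2 difference of the 13 was 0.22, the value of Rbbp4 itself. Values below 0 were fitted for A430005L14Rik, Arl2bp, Fem1b, Fnip1, Man2b2 and Smdt1. Of the genes above 0, 9230116N13Rik, Irak1bp1 and Zfp607b had means under 1 CPM in both genotypes (SE 0.67, 0.41 and 0.999). At an unadjusted p under 0.05, 1 of the 13 was lower (Fem1b), and DESeq2 called 0 lower. These letters are a description of the DNA, and ChREBP binding was not measured.

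A full E box was in 6.02% of promoters and in those of Mlxipl, Mlx and Khk, shown here in 30 bases with the E box in capitals.

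Mlxipl, before its upstream start, chr5:135089780-135089809, plus strand: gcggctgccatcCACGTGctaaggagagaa

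Mlx, chr11:101087238-101087267, plus strand: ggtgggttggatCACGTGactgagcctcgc

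Khk, chr5:30921476-30921505, plus strand: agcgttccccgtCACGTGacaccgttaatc

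The E box of Mlxipl stood 98 to 93 bases before the upstream start, the one known for the ChREBP-beta isoform, which ChREBP itself can drive. The window of Khk lies inside the gene as the table bounds it, since the RefSeq start is further downstream. None of these 3 genes had a second hexamer at the 5-base distance. A hexamer was in 23.5% of promoters and in 6 of the 8 genes, and a CCAAT box in 33.8% of promoters and in 7 of the 8. The percentages count promoters, whereas the 8 genes have 10 promoters, so the units differ and the shares are not compared.

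The 2 genes with the widest difference between genotypes, Txnip and Rgs16, are shown with the whole 250 bases before their starts, hexamers in capitals.

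Txnip, chr3:96557707-96557956, plus strand: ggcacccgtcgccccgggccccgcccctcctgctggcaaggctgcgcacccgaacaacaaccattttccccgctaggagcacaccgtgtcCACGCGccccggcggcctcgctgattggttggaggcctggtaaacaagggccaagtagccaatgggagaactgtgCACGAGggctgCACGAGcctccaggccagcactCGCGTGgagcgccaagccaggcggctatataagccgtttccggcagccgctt

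Rgs16, chr1:153740103-153740352, plus strand: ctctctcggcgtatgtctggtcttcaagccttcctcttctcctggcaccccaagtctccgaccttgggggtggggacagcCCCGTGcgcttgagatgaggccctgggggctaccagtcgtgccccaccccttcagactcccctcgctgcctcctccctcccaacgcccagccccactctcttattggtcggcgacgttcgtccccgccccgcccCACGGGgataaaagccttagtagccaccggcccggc

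Txnip held 4 hexamers in this window and Rgs16 held 2, at 170 to 165 and 36 to 31 bases before its start, too far apart to count as a pair. No hexamer was found in these letters for Slc2a2 and Gckr.

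Per transcript length, all 8 genes were expressed in both genotypes, and their order differed between them. In WT, the mean FPKM (fragments per kilobase of transcript, scaled to depth) ran from Khk at 199.6 ± 14.3 (SD, n = 3) through Rgs16 at 154.9 ± 8.80, Slc2a2 at 100.2 ± 4.84, Pklr at 67.4 ± 2.63, Mlxipl at 49.2 ± 1.13, Gckr at 37.1 ± 1.98 and Txnip at 26.4 ± 2.18 to Mlx at 6.79 ± 0.139. The ranges of neighbours in this order did not overlap, and each of the 3 WT libraries gave the same order. In S100a16KO+/- the mean FPKM ran from Khk at 210.8 ± 20.1 through Slc2a2 at 102.4 ± 7.78, Pklr at 77.3 ± 1.58, Txnip at 48.8 ± 3.64, Mlxipl at 43.7 ± 3.25, Rgs16 at 38.9 ± 3.66 and Gckr at 35.5 ± 4.95 to Mlx at 6.37 ± 0.0676. There the ranges of Txnip and Mlxipl overlapped, as did those of Mlxipl and Rgs16 and of Rgs16 and Gckr, so their places do not differ beyond the spread. Rgs16 stood at rank 2 in WT and rank 6 in S100a16KO+/-, Txnip stood at rank 7 and rank 4, and the other 6 genes kept their order among themselves.

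**Figure D1:**
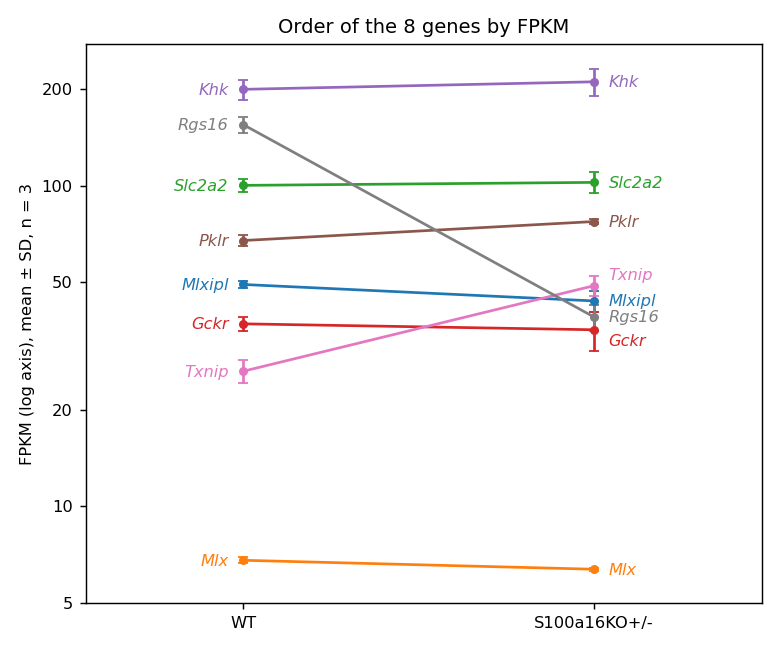
Mean level of each of the 8 genes in FPKM on a log axis in WT and in S100a16KO+/- (error bars, SD over 3 libraries), with a line joining the genotypes for each gene. The lines of Rgs16 (154.9 to 38.9 FPKM) and Txnip (26.4 to 48.8 FPKM) cross those of other genes, while the line of Khk stays on top and that of Mlx at the bottom.

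The sensor and its partner come first. Mlxipl was measured at 324, 301 and 292 CPM in WT and at 247, 282 and 280.3 CPM in S100a16KO+/-. Every S100a16KO+/- library was below every WT library, but only by a small gap, with 292 CPM the lowest WT value and 282 CPM the highest S100a16KO+/- value. The means were 306 ± 16.3 and 269.9 ± 19.9 CPM (SD, n = 3), a log2 difference of -0.18 (SE 0.06, 95% interval -0.31 to -0.05), which leaves 88.3% of the WT level. Mlxipl lies at chr5:135089890-135138382 (mm10) and has 2 starts 17001 bases apart, for the alpha and beta isoforms. The table holds 1 value per gene, so the isoforms are not separated.

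Mlx, the obligate partner, was measured at 16.4, 14.5 and 14.9 CPM in WT and at 14.0, 15.2 and 13.6 CPM in S100a16KO+/-. The groups overlapped, with a log2 difference of -0.10 (SE 0.09, 95% interval -0.29 to 0.10). Mlx was the lowest of the 8 genes in both genotypes, and the FPKM ratio of Mlxipl to Mlx was 7.25 ± 0.222 in WT and 6.87 ± 0.570 in S100a16KO+/-, with overlapping ranges.

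Entry and trapping of sugar showed the smallest differences. Slc2a2, the transporter, was measured at 642, 644 and 651 CPM in WT and at 686, 637 and 644 CPM in S100a16KO+/-. The groups overlapped and the log2 difference was 0.02 (SE 0.05, 95% interval -0.08 to 0.12), while 94.7% of tested genes had a larger absolute difference. Khk, which phosphorylates fructose, was at 388, 404 and 412 CPM in WT and at 432, 398 and 433 CPM in S100a16KO+/-. The groups again overlapped, with a log2 difference of 0.07 (SE 0.05, 95% interval -0.04 to 0.18). Gckr, the regulatory protein, was at 179, 183 and 177 CPM in WT and at 171, 155 and 187 CPM in S100a16KO+/-. Its libraries were more scattered in S100a16KO+/-, with a coefficient of variation of 9.30% against 1.65% in WT. The lowest value, 155 CPM, came from S100a16KO+/- replicate 2, a library that stood apart. Such a rise in scatter was not particular to Gckr. It was also seen for Slc2a2 (4.07% against 0.711%), Pklr (3.38% against 0.554%), Rgs16, Mlxipl and Khk, but not for Mlx and Txnip. The groups of Gckr overlapped at a log2 difference of -0.07 (SE 0.06, 95% interval -0.21 to 0.06).

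**Figure D2:**
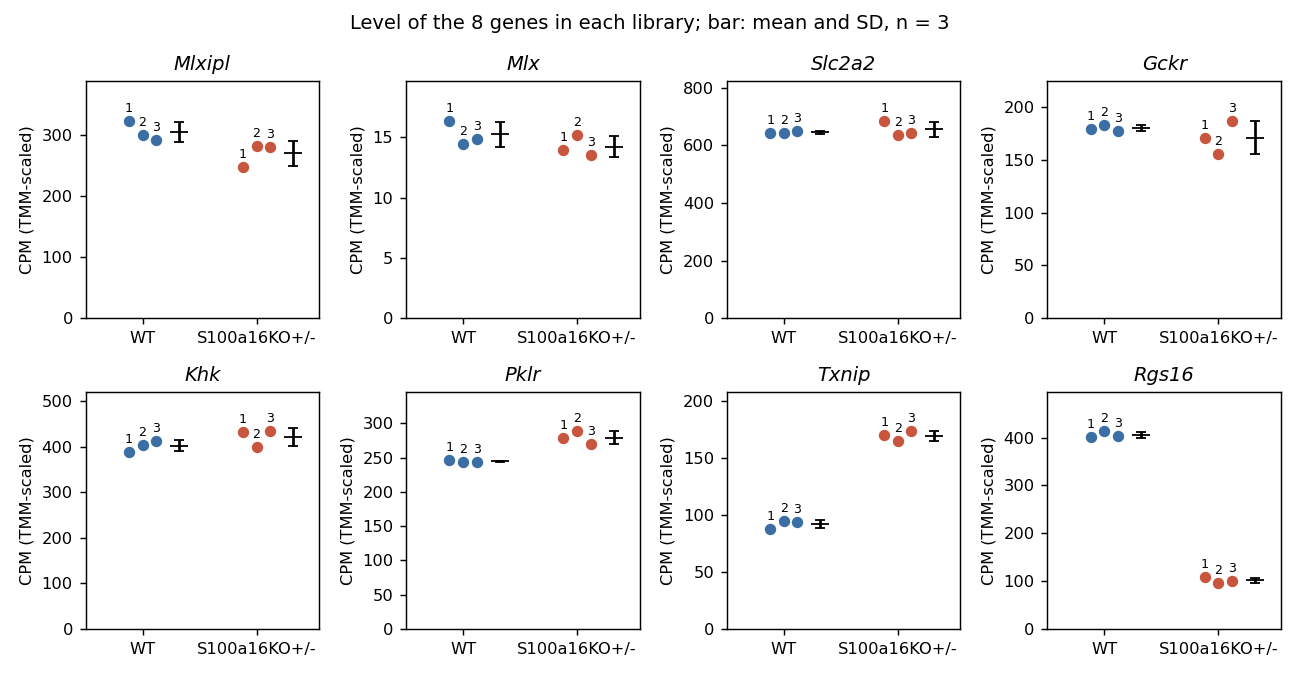
Level of each of the 8 genes in CPM in the 3 WT and 3 S100a16KO+/- libraries (points, single libraries numbered by replicate; bars, mean and SD), with an axis from 0 for each gene. The points of Txnip (88.0 to 94.7 and 165 to 173 CPM) and Rgs16 (401 to 413 and 96.3 to 108 CPM) lie far apart between genotypes, those of Pklr and Mlxipl are separate by a small gap, and those of Mlx, Slc2a2, Gckr and Khk overlap.

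Pklr and Txnip, named above among the genes that ChREBP drives, were higher in S100a16KO+/-. Rgs16, which is also known to follow sugar supply, was lower. Pklr, the last enzyme of glycolysis in liver, was measured at 246, 244 and 244 CPM in WT and at 278, 288 and 269.6 CPM in S100a16KO+/-. All 3 S100a16KO+/- libraries were above all 3 WT libraries, with means of 244 ± 1.35 and 279 ± 9.41 CPM (SD, n = 3) and a log2 difference of 0.19 (SE 0.05, 95% interval 0.09 to 0.29). Pklr is also made in red cells, from a first start 481 bases upstream of the liver start, and the table does not separate the starts. The haemoglobin gene Hbb-bs was at 83.4 ± 5.62 CPM in WT and 7.73 ± 0.946 CPM in S100a16KO+/-, and the part of red cells in the Pklr values was not tested. Pklr also overlaps 711 bases of Hcn3 on the other strand, which held 1146 to 1385 counts and a log2 difference of -0.14 (edgeR adjusted p = 0.340).

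Txnip was measured at 88.0, 94.7 and 93.9 CPM in WT and at 170.3, 165 and 173 CPM in S100a16KO+/-. The 2 groups were far apart and each was tight, with means of 92.2 ± 3.63 and 169 ± 4.35 CPM (SD, n = 3). The log2 difference was 0.88 (SE 0.05, 95% interval 0.76 to 0.99), that is 184% of the WT level, and 9.71% of tested genes had a larger absolute difference. All 3927 bases of Txnip lie within the antisense gene Gm15441, which held 44 to 94 counts in WT and 21 to 47 counts in S100a16KO+/-. Its log2 difference was -0.99 (edgeR adjusted p = 0.0979). Txnip itself held 6012 to 6663 counts in WT and 10591 to 12487 counts in S100a16KO+/-. The library kit marks strand, but the strand setting of the counting is not given in the sources used here, so reads of the 2 genes may have been shared.

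Rgs16 was measured at 401, 413 and 402 CPM in WT and at 108, 96.3 and 100.1 CPM in S100a16KO+/-. It showed the widest difference of the 8 genes, with means of 406 ± 6.54 and 101.3 ± 5.74 CPM (SD, n = 3), 25.0% of the WT level. The log2 difference was -2.00 (SE 0.06, 95% interval -2.12 to -1.88), and 77 tested genes had a larger fall. The antisense gene Gm28513, which overlaps 1917 bases of Rgs16, held 62 to 94 counts in WT and 12 to 26 in S100a16KO+/-, a log2 difference of -1.92 (edgeR adjusted p = 0.00323); whether reads of the 2 were shared was not tested. The FPKM ratio of Rgs16 to Txnip was 5.88 ± 0.189 in WT and 0.798 ± 0.0395 in S100a16KO+/-.

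Of the 8 genes, 2 (Pklr and Txnip) were past the threshold upwards, where 11.6% of all tested genes were, and 1 (Rgs16) downwards, where 11.2% were. The libraries did not overlap for 2 genes higher (Pklr, Txnip) and 2 genes lower (Mlxipl, Rgs16) in S100a16KO+/-, against 19.2% and 18.6% of tested genes (37.9% in either direction). The study set an unadjusted p under 0.05 with a 2-fold difference, by DESeq2. With these limits on the edgeR fit, 1 of the 8 (Rgs16) passed, and it was lower. Over all tested genes 4.52% passed (2.9% higher and 1.62% lower), a share of the edgeR fit and not the study's own. The median log2 difference of the 8 was -0.03. Since the genes were picked with these results known, nothing is read from the counts. Without WT replicate 1 and S100a16KO+/- replicate 2, the libraries that stand apart, the log2 differences were -0.17 for Mlxipl, -0.10 for Mlx, 0.04 for Slc2a2, -0.02 for Gckr, 0.08 for Khk, 0.17 for Pklr, 0.86 for Txnip and -1.98 for Rgs16, a setting added after seeing the data. Mlxipl came out just short of the threshold. Pklr passed it but not without WT replicate 2 or WT replicate 3, where its log2 difference was 0.19 in both fits, as with all libraries.

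**Figure D3:**
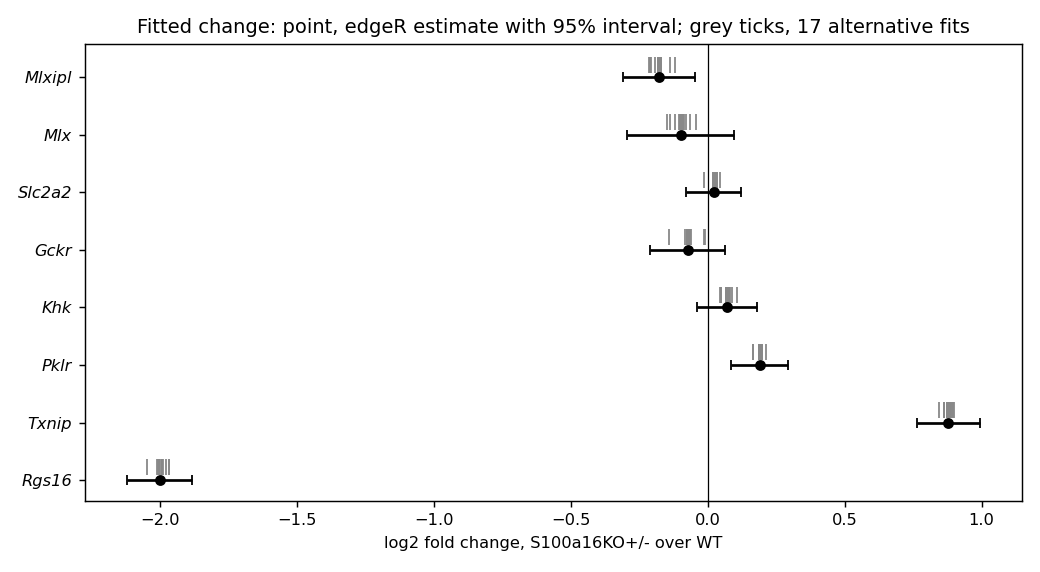
Fitted log2 difference, S100a16KO+/- minus WT, of each of the 8 genes (points) with its 95% interval (bars), a line at 0, and grey ticks for the values of 17 alternative fits. Rgs16 lies at -2.00 and Txnip at 0.88, Pklr and Mlxipl are close to 0 (intervals 0.09 to 0.29 and -0.31 to -0.05), and the intervals of the other 4 genes span 0. The intervals are not adjusted for the number of genes, and no test is read from them.

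S100a16 itself lies on chromosome 3, as do 3 of the 8 genes. Pklr (chr3:89136142-89146594) is 1.39 Mb from S100a16, Txnip (chr3:96557957-96561883) 6.01 Mb and Slc2a2 (chr3:28697903-28731359) 61.81 Mb. Within 2 Mb of S100a16, 30.9% of 81 tested genes were past the threshold, and within 10 Mb 24.4% of 266 were. Over all tested genes the share was 22.8%. The median log2 differences in the 2 windows were 0.09 and 0.01, and an effect of the deleted locus on its neighbours was not tested. These windows were chosen after the positions were seen. The other genes lie elsewhere, with Rgs16 at chr1:153740349-153745468, Mlx at chr11:101087277-101092207, and Khk (chr5:30921431-30931248) and Gckr (chr5:31297443-31327314) near each other.

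Relatives of ChREBP and Mlx form the MAX and MLX network of E-box-binding factors. Of 11 such genes 9 were tested, 4 rose and 1 fell in S100a16KO+/-, with a median log2 difference of 0.18. Beside the counts of this list and of those below, 11.6% of all tested genes rose and 11.2% fell. Mxd1, a repressor that pairs with Max, went from 2.46 ± 0.536 to 4.52 ± 0.833 CPM (log2 0.87, SE 0.20, edgeR adjusted p = 0.00592). Mlxip (MondoA), the sugar sensor of muscle, went from 6.82 ± 0.306 to 9.66 ± 0.827 CPM (log2 0.50, adjusted p = 0.00507 in edgeR). With Mlxipl slightly lower, the FPKM ratio of Mlxipl to Mlxip was 67.6 ± 3.82 in WT and 42.5 ± 6.43 in S100a16KO+/-. Mxi1, another Max partner, rose from 16.2 ± 1.76 to 22.6 ± 1.35 CPM (log2 0.48, edgeR adjusted p = 0.00163). The gene that fell was Mga, which carries both a T-box and a Max-binding domain, from 21.6 ± 2.20 to 13.1 ± 0.699 CPM (log2 -0.72, edgeR adjusted p = 5.86e-05). The other riser, named after its values were seen, was Mxd4 (log2 0.46, edgeR adjusted p = 0.000207).

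Other genes known as ChREBP targets passed the test in both directions as well. Of 21 such genes 20 were tested, 5 rose, 8 fell and 7 did not pass, with a median log2 difference of 0.01. The largest rises were those of Me1, malic enzyme, which makes NADPH (79.6 ± 3.20 to 108 ± 0.834 CPM, log2 0.44, edgeR adjusted p = 3.06e-05), and Scd1, the stearoyl-CoA desaturase (400.3 ± 13.4 to 538 ± 31.0 CPM, log2 0.43, adjusted p = 3.95e-05 in edgeR). G6pc, which releases free glucose, rose from 872 ± 15.2 to 1080 ± 38.6 CPM (log2 0.31, edgeR adjusted p = 0.000186). Acacb, an acetyl-CoA carboxylase, also rose and is named after its values were seen (log2 0.28, edgeR adjusted p = 0.00213). The 3 largest falls exceeded the rises in size. Angptl8, a secreted regulator of lipoprotein lipase, fell from 134 ± 6.13 to 8.37 ± 0.421 CPM (log2 -4.00, edgeR adjusted p = 3.85e-14), and Fgf21, a hormone of the sugar and fasting responses, from 106 ± 11.5 to 7.64 ± 1.31 CPM (log2 -3.80, adjusted p = 9.01e-08). Fasn, fatty acid synthase, fell from 297 ± 6.08 to 99.8 ± 7.61 CPM (log2 -1.57, edgeR adjusted p = 2.12e-10). Many of these genes answer to SREBP-1c, insulin or stress signals as well, so the list is not a readout of ChREBP alone.

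Hexose uptake and phosphorylation was read beyond Slc2a2, Khk and Gckr. Of 16 genes 13 were tested, 4 rose and 2 fell, with a median log2 difference of 0.15. Glyctk, a glycerate kinase of fructose breakdown, fell from 145 ± 7.08 to 112 ± 7.06 CPM (log2 -0.38, edgeR adjusted p = 0.000375). Akr1b3, the aldose reductase that turns glucose to sorbitol, rose from 3.08 ± 0.252 to 10.8 ± 1.6 CPM (log2 1.81, edgeR adjusted p = 3.96e-07). Hk1, a hexokinase low in hepatocytes, went from 1.64 ± 0.108 to 2.76 ± 0.348 CPM (log2 0.75, edgeR adjusted p = 0.0139), a call lost without WT replicate 3 or S100a16KO+/- replicate 3. Slc2a8 (GLUT8) rose from 15.0 ± 1.33 to 21.2 ± 1.18 CPM (log2 0.50, edgeR adjusted p = 0.000952). Pfkfb1, the liver enzyme that sets the level of an activator of glycolysis, also rose and is named after its values were seen (log2 0.34, edgeR adjusted p = 0.0218).

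Relatives and partners of Txnip passed the test in the downward direction only. Of 9 tested genes for arrestin-domain proteins and the thioredoxin system, 0 rose and 4 fell, with a median log2 difference of -0.18. With 11.6% of all tested genes higher and 11.2% lower, nothing is read from a count of 0 in so short a list. At an unadjusted p under 0.05, 2 were higher (Arrdc1 and Arrdc4), and DESeq2 called 0 higher. Arrdc3, an arrestin-domain adaptor, fell from 87.6 ± 3.68 to 18.1 ± 2.31 CPM (log2 -2.27, edgeR adjusted p = 2.00e-10). Arrdc4, which is also a known ChREBP and MondoA target, was at 16.9 ± 1.45 and 19.7 ± 0.361 CPM (log2 0.22, edgeR adjusted p = 0.0802), so that the FPKM ratio of Txnip to Arrdc4 was 7.07 ± 0.490 in WT and 11.1 ± 0.461 in S100a16KO+/-. The thioredoxin reductases Txnrd1 and Txnrd2, which recharge thioredoxins, fell by 0.34 and 0.31 on the log2 scale (edgeR adjusted p = 0.00138 and 0.0149). The call of Txnrd2 was lost without WT replicate 2. The mitochondrial thioredoxin Txn2 fell by 0.18 and is named after its values were seen (edgeR adjusted p = 0.0427).

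Among 10 other tested regulators of G protein signalling, 2 rose and 1 fell, with a median log2 difference of 0.02. Rgs5, a marker of pericytes, rose from 3.93 ± 0.743 to 6.28 ± 0.284 CPM (log2 0.68, edgeR adjusted p = 0.00644), and Rgs3 from 5.81 ± 1.15 to 9.08 ± 1.0 CPM (log2 0.64, adjusted p = 0.00581 in edgeR). The stellate markers given above were higher in the same libraries, and their part was not tested. Rgs12 went from 3.20 ± 0.446 to 1.91 ± 0.485 CPM (log2 -0.74, edgeR adjusted p = 0.0244), and this call held in 2 of the 6 fits that left out 1 library.

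**Figure D4:**
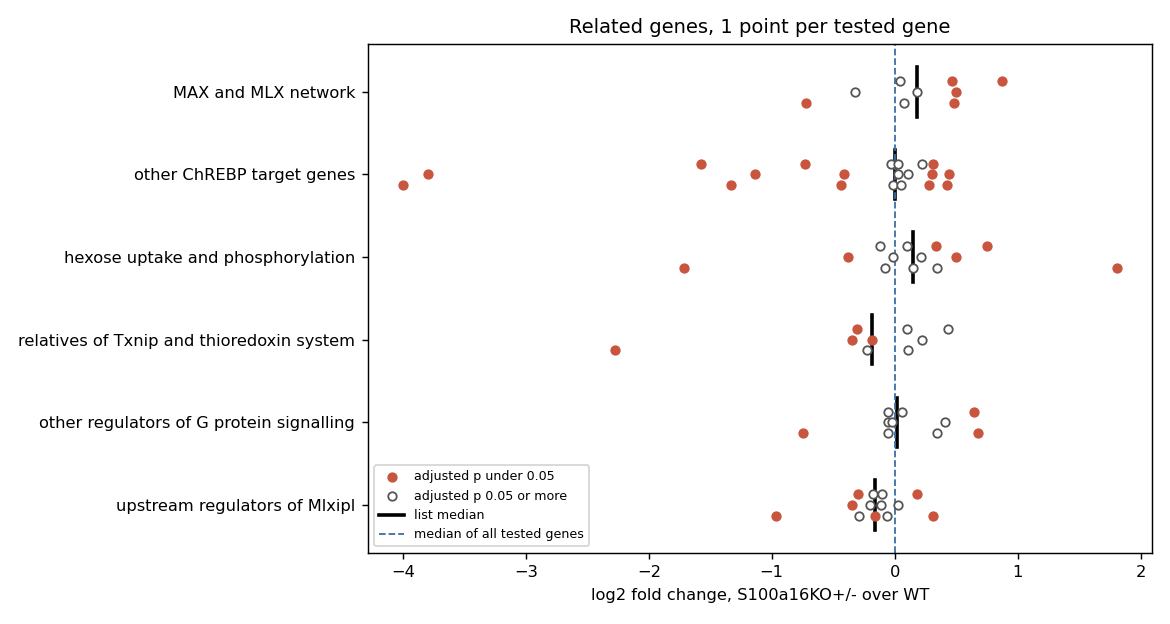
Log2 difference, S100a16KO+/- minus WT, of the tested genes in each of 6 lists (points, single genes; filled where the edgeR adjusted p was under 0.05; bars, list medians; dashed line, median of all tested genes). The medians lie between -0.18 and 0.18, and the points at the far left are Angptl8 (-4.00) and Fgf21 (-3.80), both among the ChREBP target genes.

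Regulators known to act on ChREBP or its gene were read as a last list. Of 13 tested, 2 rose and 4 fell, with a median log2 difference of -0.16. Oga and Ogt, the enzymes that remove and add the O-GlcNAc mark carried by ChREBP, went in opposite directions. Oga fell from 41.3 ± 1.56 to 21.1 ± 1.85 CPM (log2 -0.97, edgeR adjusted p = 3.63e-07), whereas Ogt rose from 71.1 ± 0.546 to 80.5 ± 1.61 CPM (log2 0.18, edgeR adjusted p = 0.0237), a call kept in 1 of the 6 fits that left out 1 library. Prkaa2, a catalytic subunit of AMPK, which phosphorylates ChREBP, fell by 0.30 on the log2 scale (edgeR adjusted p = 0.00399). Rxra, the partner of the LXR receptors, fell by 0.16 and is named after its values were seen (edgeR adjusted p = 0.0403). Nr1h2 (LXR beta) was 26.3 ± 3.02 and 32.5 ± 3.19 CPM (log2 0.31, edgeR adjusted p = 0.0257) with libraries that overlapped between genotypes, and the call held in 2 of the 6 fits without 1 library.

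The genes whose profile over the 6 libraries was most like that of Txnip and of Rgs16 were sought among 6550 tested genes, by the root mean square difference of centred log2(CPM + 1). For Txnip they were Slc7a2, a cationic amino acid transporter (0.0312) and Dnajb11, a chaperone of the endoplasmic reticulum (0.0360), with log2 differences between genotypes of 0.90 and 0.91. For Rgs16 they were the tubulin gene Tuba1c (0.0825), the thioesterase gene Acot1 (0.10) and Ppp1r3c, a glycogen-targeting subunit of protein phosphatase 1 (0.117), with log2 differences of -2.18, -1.93 and -2.12. All 6 libraries of both genotypes enter the measure, so a gene with a like difference between genotypes scores as alike.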

How the data were processed

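RNA of 6 libraries (3 WT, 3 S100a16KO+/-) was sequenced on poly(A)-selected, strand-marked fragments. The submitters' processing notes name cutadapt 1.9, HISAT2 2.0.4, UMI-tools, StringTie 1.3.4d, DESeq2, edgeR and the build mm10, and their order is not given in the sources used here. The authors deposited 1 table with an estimated count and an FPKM value per gene and library, and its FPKM values were made by the authors per kilobase of transcript and depth. Columns of other samples numbered 0. Counts cluster at multiples of about 4 per fragment, so a floor of 3 fragments was taken as 12 counts. Depth was 67658095 to 71807834 estimated counts per library, and that floor covers counting error only.

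Counts were rounded, scaled by TMM, filtered with filterByExpr and fitted with edgeR 4.0.16 (robust quasi-likelihood, two-sided, R 4.3.3), with Benjamini-Hochberg adjustment over 15957 genes and a threshold of 0.05. CPM values use TMM library sizes. FPKM served only for the order of the genes and for ratios. The labels give replicate numbers but not separate mice, so p-values measure the spread between these libraries. Alternatives were limma 3.58.1 on log2(FPKM + 1) and log2(FPKM + 0.1), DESeq2 1.42.0, other scalings and filters, a replicate block and leaving out libraries. The fitting code was tested on simulated data.

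The 8 genes and all lists were chosen with earlier results of these data known. Named were the 8 genes, S100a16, in each of 6 lists up to 3 genes called higher and 3 called lower with the largest absolute log2 difference whose mean reached 1 CPM, and the 3 genes most like Txnip and most like Rgs16 among genes whose mean reached 10 CPM. Overlapping genes and starts come from GENCODE and RefSeq annotation of the same assembly. Arrdc5, Rgs13 and Rgs21 of the lists were not analysed here. Some genes that this rule selects are not reported here, but the counts and medians include them.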

Additional observations from a re-analysis of the deposited data

How the results depend on the processing

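Over 17 alternative fits the log2 difference ranged from -0.21 to -0.12 for Mlxipl, -0.15 to -0.04 for Mlx, -0.01 (without S100a16KO+/- replicate 1) to 0.04 for Slc2a2, -0.14 to -0.01 for Gckr, 0.04 to 0.11 for Khk, 0.17 to 0.21 for Pklr, 0.85 to 0.90 for Txnip and -2.05 to -1.97 for Rgs16. All 136 of these values moved by less than 1 SD of log2 CPM between libraries of a genotype, but that of Gckr moved by more than its SE without S100a16KO+/- replicate 2 (to -0.01) or S100a16KO+/- replicate 3 (to -0.14). Mlxipl passed the threshold in 8 of 17 fits and Pklr in 14. The 8 genes lower then counted 2 in place of 1 with RLE size factors, TMM without the 20 most abundant genes, no filter, at least 1 CPM in 3 libraries, counts divided by 4, DESeq2 (25701 genes tested), and, chosen after seeing the data, without both libraries that stand apart. The MAX and MLX network counted 2 lower in place of 1 with DESeq2 and without both libraries.

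With limma on log2(FPKM + 1), which tested 9054 genes, 1165 genes were higher and 1063 lower in place of 1853 and 1790 (1157 and 1051 with a pseudocount of 0.1). With either pseudocount the network counted 2 higher, hexose genes 2 higher, Txnip relatives 1 lower, RGS genes 1 higher and 0 lower, and regulators of Mlxipl 1 higher and 2 lower. Without a filter limma gave 972 and 746 genes, 1 of the 8 genes higher, 2 network genes higher, 3 ChREBP targets higher, 1 hexose gene in each direction, 1 Txnip relative lower, 0 RGS genes in either direction, and 0 regulators higher and 2 lower. With a 2-fold limit and an unadjusted p in the edgeR fit, 463 genes passed as higher and 258 as lower. Of the 8 genes 0 were then higher and 1 lower. The lists counted 0 network genes, 0 ChREBP targets higher and 5 lower, and 1 hexose gene in each direction. They also counted 1 Txnip relative lower, 0 RGS genes and 0 regulators. Apart from the number of genes tested, the cause was not tested.

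The replicate numbers did not pair the libraries (correlations of -0.05, -0.02 and 0.05 for equal numbers). A replicate block gave 1566 genes higher and 1516 lower, 2 network genes lower and 0 regulators higher, and 2 of the 8 genes higher and 1 lower.

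Without 1 library, 1420 to 1645 genes were higher and 1314 to 1657 lower. Of the 8 genes 1 to 2 were higher (1 without WT replicate 2 or WT replicate 3) and 1 to 2 lower (2 without S100a16KO+/- replicate 2). The network counted 4 higher and 1 to 2 lower (2 without WT replicate 3 or S100a16KO+/- replicate 2), ChREBP targets 5 to 6 higher and 8 lower, and hexose genes 2 to 4 higher (2 without WT replicate 3 or S100a16KO+/- replicate 3) and 2 lower. Txnip relatives counted 0 to 1 higher (1 without WT replicate 3) and 2 to 4 lower (2 without WT replicate 2). RGS genes counted 2 higher and 0 to 1 lower (0 without WT replicate 1, WT replicate 2, S100a16KO+/- replicate 1 or S100a16KO+/- replicate 3). Regulators counted 0 to 1 higher (0 without WT replicate 2, WT replicate 3 or S100a16KO+/- replicate 3, and 1 without any other) and 2 to 3 lower (2 without WT replicate 1 or S100a16KO+/- replicate 3). Of 288 recomputed counts, 212 were within 1.5 times the reported one.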
